A study of Homo sapiens with 8 samples.

Results

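Of 33221 genes counted in PC3 and DU145 prostate carcinoma cells, 6 stood apart in a single group of libraries and lay close together in all other libraries: IFI6, UHMK1, PPARGC1B, EPDR1, XAGE1B and a readthrough gene listed as AC105052. They were chosen by their own levels in CPM, the count of a gene scaled to a common library total. A gene was taken when its mean was 2 CPM or more, when both libraries of one group were at least 2-fold above or at least 2-fold below every one of the other 6 libraries, and when those 6 lay within 1.6-fold of each other. The mean of 2 CPM was reached by 13858 genes, and 11 of them, 0.0794%, had the pattern. The choice left out 7 genes by name, of which 5 had the pattern and 2, MAP3K20 and SEC22C, did not, so that 6 genes remained. Because these levels chose the genes, they are described below by levels and fitted differences, without p-values.

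The study measured polyadenylated RNA in 4 groups of 2 libraries. PC3 cells received CRISPR/Cas9 lentivirus with a guide against EphA2 (EphA2 KO) or control lentivirus with a non-targeting guide, and were kept for 72 h. DU145 cells received an EphA2 expression plasmid (EphA2 OE) or a control plasmid by lipofection, and were kept for 48 h. EphA2 is a receptor tyrosine kinase that binds ephrin-A ligands on neighbouring cells. The labels name no clone for the infected cells, and do not say whether the 2 libraries of a group came from separate cultures, so the p-values below measure the spread between libraries, which may be technical. The columns headed NC and Vector were read as the PC3 and DU145 controls by the usual meaning of these words. Which genes were chosen does not depend on that reading.

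Total counts were close, from 57571919 to 60951530 per library. EPHA2 itself was at 204 and 185 CPM in EphA2 KO, 269 and 272 CPM in the PC3 controls, 340 and 397 CPM in EphA2 OE, and 286 and 288 CPM in the DU145 controls. All 5 epithelial markers were present, with a summed level of 1425 to 1892 CPM, while summed fibroblast markers were at 4.29 to 7.68 CPM, mostly COL1A1, and summed endothelial and leukocyte markers did not exceed 1.42 CPM in any library. CTNNA1, a catenin gene that PC3 cells are known to lack, was at 380 to 478 CPM in all 8 libraries, so the libraries labelled PC3 go against that label. The groups are called by their labels below. The identity of the lines was not tested further.

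The genes have different known roles. IFI6 is a small membrane protein induced by type I interferon, which acts through transcription factors that bind response elements in target promoters. UHMK1 is a serine/threonine kinase that phosphorylates the cell cycle inhibitor CDKN1B and the splicing factor SF1, PPARGC1B is a coactivator of nuclear receptors that promotes mitochondrial gene expression, and EPDR1 is a lysosomal glycoprotein related to ependymin. XAGE1B is a cancer-testis antigen encoded on the X chromosome. AC105052, a name that other genes also carry, is used here for ENSG00000267645. Its transcript runs from POLR2J2, a copy of an RNA polymerase II subunit gene, into UPK3BL1, a uroplakin-like gene.

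Sequences bear on IFI6 and XAGE1B. The IFI6 promoter is shown because it holds a repeated interferon response element; it is the 250 bases before the start in RefSeq, build GRCh38.p14, 1:27672193-27672442, minus strand, with matches to GAAA, any 2 bases and GAAA in capitals.
IFI6 promoter: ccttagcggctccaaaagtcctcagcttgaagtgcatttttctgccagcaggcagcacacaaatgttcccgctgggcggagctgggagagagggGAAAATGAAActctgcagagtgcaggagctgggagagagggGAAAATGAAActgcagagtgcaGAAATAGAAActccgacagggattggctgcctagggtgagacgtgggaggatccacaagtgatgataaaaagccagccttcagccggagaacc
The matches began 156, 115 and 93 bases before the start. Both strands were searched, and all 3 matches were on the strand of the gene. At least 3 matches were found in a promoter of 8 of 27305 genes, 0.0293%, and at least 1 in a promoter of 3.71%. The promoters of the other 5 genes held none. No promoter of the 6 genes held GGG, any 2 bases and TTTCC (an NF-kB site), TGATGNAA (an amino acid response element) or TGANTCA (an AP-1 site). These were found in a promoter of 2.12%, 3.89% and 8.06% of genes. A match is a description of the letters and not of a bound site.

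XAGE1B is shown with XAGE1A because reads cannot tell their coding sequences apart. The first 90 of 207 coding bases, from GENCODE v29 transcripts, are given for both.
XAGE1B: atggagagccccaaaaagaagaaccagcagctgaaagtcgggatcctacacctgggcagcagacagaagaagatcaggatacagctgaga
XAGE1A: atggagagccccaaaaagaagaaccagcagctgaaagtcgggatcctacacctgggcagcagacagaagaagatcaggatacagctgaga
All 207 coding bases were identical between the genes.

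IFI6 (ENSG00000126709, GRCh38 chromosome 1, 27666064 to 27672192, minus strand) was the only one of the 6 genes that was high in its group. In the libraries of EphA2 OE it was at 34.3 and 73.2 CPM. It was at 8.88 and 7.50 CPM in EphA2 KO, at 7.03 and 7.24 CPM in the PC3 controls and at 7.04 and 9.29 CPM in the DU145 controls. Both EphA2 OE libraries were far above all others, and they differed from each other more than any other pair of replicates of this gene. The fitted difference, EphA2 OE minus the mean of the other 3 groups, was 2.75 on the log2 scale (SE 0.24), and it was 3.19 without replicate 1 and 2.14 without replicate 2 of EphA2 OE.

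UHMK1 (ENSG00000152332, chromosome 1, 162497251 to 162529629, plus strand) was low in EphA2 OE, at 85.7 and 92.8 CPM. The other libraries held 328 and 315 CPM in EphA2 KO, 384 and 377 CPM in the PC3 controls and 356 and 360 CPM in the DU145 controls. The replicates were close in every group, and the fitted difference for EphA2 OE was -2.00 on the log2 scale (SE 0.07).

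PPARGC1B (ENSG00000155846, chromosome 5, 149730298 to 149855022, plus strand) was also low in EphA2 OE, at 5.35 and 3.11 CPM. It was at 17.6 and 20.1 CPM in EphA2 KO, at 17.6 and 18.4 CPM in the PC3 controls, and at 18.2 and 16.2 CPM in the DU145 controls. The 6 other libraries were alike, and the fitted difference of -2.10 (log2, SE 0.24) ranged with the EphA2 OE library left out from -2.57 to -1.74.

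EPDR1 (ENSG00000086289, chromosome 7, 37683843 to 37951936, plus strand) was the third gene low in EphA2 OE, at 32.0 and 32.4 CPM. It was at 108 and 102 CPM in EphA2 KO, at 98.9 and 96.0 CPM in the PC3 controls, and at 105 and 111 CPM in the DU145 controls. The fitted difference was -1.70 on the log2 scale (SE 0.08). Its gap to the nearest other library, 2.96-fold, was the smallest of the 6 genes. The gene just outside the threshold was CPEB2, a regulator of mRNA translation, with a gap of 1.9-fold. It was at 28.9 and 21.3 CPM in the DU145 controls and at 7.55 to 11.2 CPM elsewhere.

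AC105052 (ENSG00000267645, chromosome 7, 102637049 to 102671641, minus strand) was low in EphA2 KO, at 3.02 and 4.79 CPM. It was at 28.0 and 25.1 CPM in the PC3 controls, at 28.1 and 28.0 CPM in EphA2 OE and at 20.3 and 21.6 CPM in the DU145 controls. Its gap of 4.23-fold was the largest of the 6, and its fitted difference was -2.68 on the log2 scale (SE 0.21).

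XAGE1B (ENSG00000204382, chromosome X, 52512077 to 52517213, minus strand) was low in EphA2 KO as well, at 1.08 and 1.10 CPM. It was at 4.15 and 4.37 CPM in the PC3 controls, at 5.19 and 4.76 CPM in EphA2 OE and at 4.06 and 4.84 CPM in the DU145 controls. It had the lowest mean CPM of the 6 genes, and its fitted difference was -2.06 on the log2 scale (SE 0.22).

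**Figure D1:**
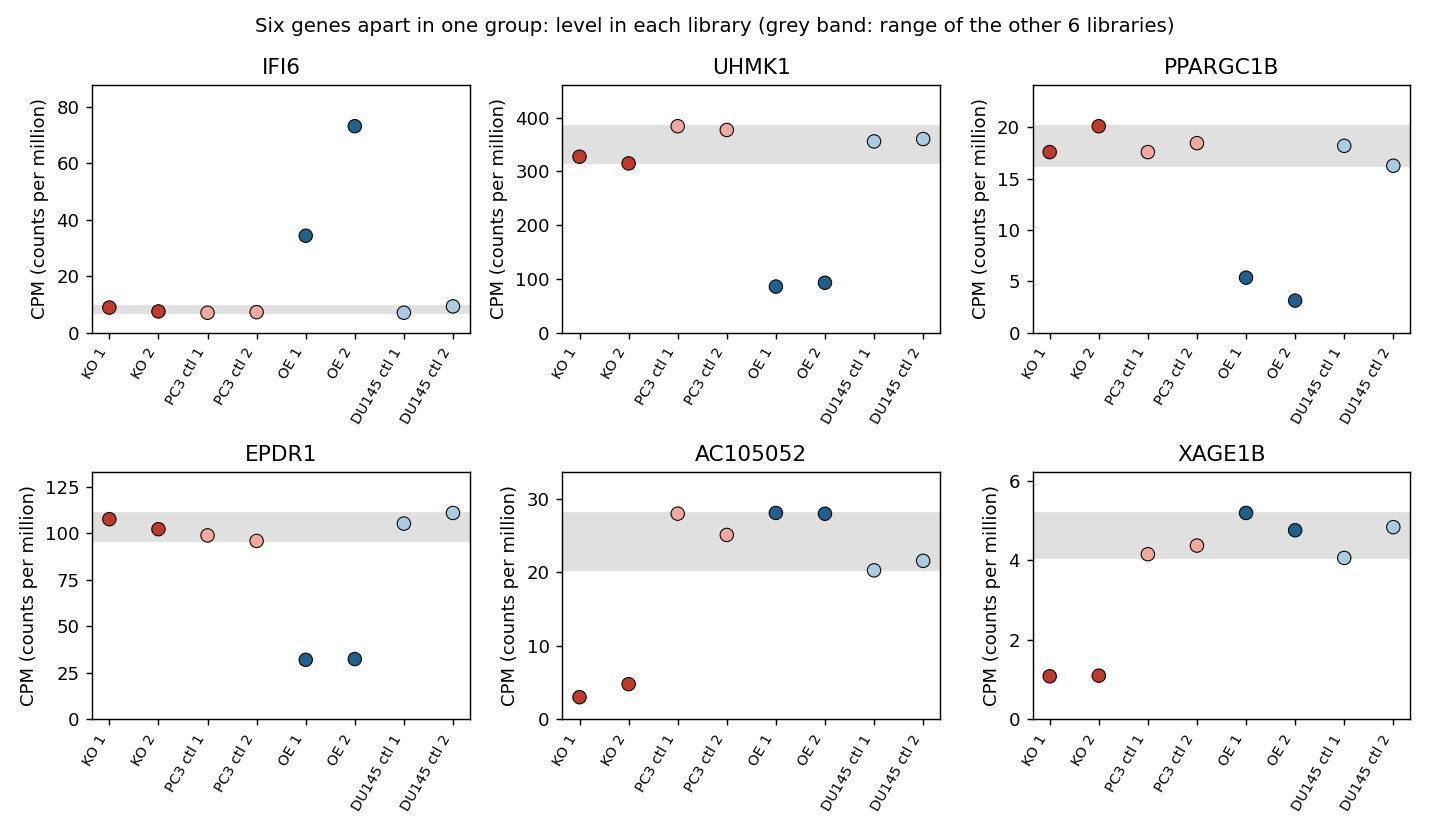
Level in CPM (linear axis from 0) of each of the 6 genes in each library; points are single libraries coloured by group and the grey band spans the 6 libraries outside the group that stands apart. IFI6 lies above the band in EphA2 OE, UHMK1, PPARGC1B and EPDR1 lie below it in EphA2 OE, and AC105052 and XAGE1B lie below it in EphA2 KO.

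Compared per length, as FPKM (the count scaled by gene length and library total), UHMK1 and EPDR1 had similar levels outside EphA2 OE although their CPM differed. UHMK1 had group means of 29.4 to 34.9 FPKM and EPDR1 of 29.7 to 33.0 FPKM. In EphA2 OE they were at 8.16 ± 0.465 and 9.79 ± 0.0895 FPKM (SD, n = 2). PPARGC1B was much lower, at 1.13 to 1.23 FPKM outside EphA2 OE and 0.277 ± 0.103 FPKM in it (SD, n = 2). IFI6 was at 7.15 to 8.21 FPKM outside EphA2 OE and at 53.9 ± 27.6 FPKM in it (SD, n = 2).

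By group, the 11 genes with the pattern were 3 low in EphA2 KO (0.0216% of genes), 1 high (0.00722%) and 2 low (0.0144%) in the PC3 controls, 1 high (0.00722%) and 3 low (0.0216%) in EphA2 OE, and 1 low in the DU145 controls (0.00722%). The altered groups thus held 7 and the control groups 4. That all 6 genes described here fell in altered groups follows from the names left out: SNX10 was low in EphA2 KO, but MAPK14 was high and STX6 and IKBKGP1 were low in the PC3 controls, and LASP1 was low in the DU145 controls. At the smaller gaps examined the control groups held more genes than the altered groups. At 1.5-fold, 17 of 42 genes were apart in an altered group and 25 in a control group, and at the smallest gap plotted 74 and 99 of 173 were.

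**Figure D2:**
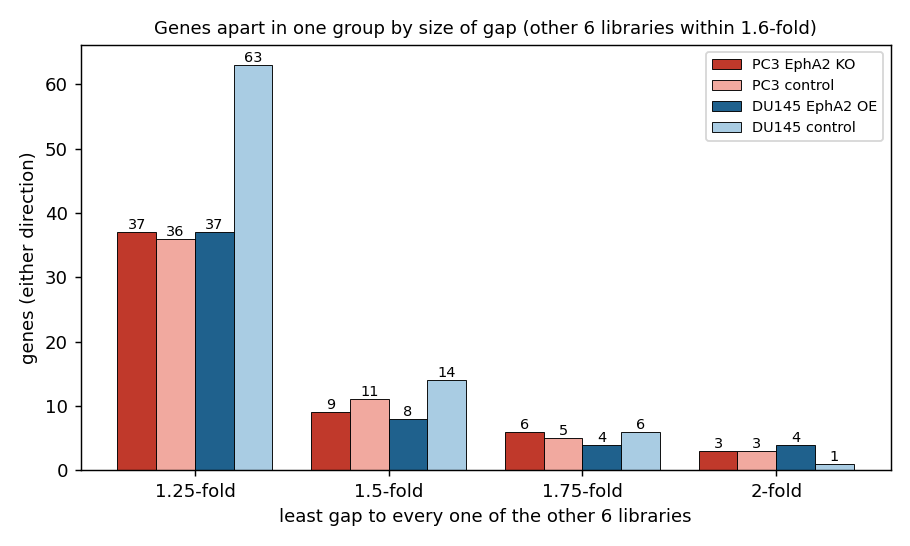
Number of genes, the named ones included, apart in each group in either direction, by the least gap to the other 6 libraries, which lie within 1.6-fold. At 2-fold the groups hold 3, 3, 4 and 1 genes, and at the smallest gap the DU145 controls hold the most, 63.

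Coordinates were examined next, since overlapping genes can share reads. Of the 6 genes, 4 overlapped another gene of the table, 66.7%, beside 61.7% of the 13858 genes, and 2 did so on the same strand, 33.3% beside 27.7%. These shares were near the background. Of the 8 overlapping genes, 6 had enough counts to be tested by edgeR's quasi-likelihood test, with p adjusted over 22727 genes by the Benjamini-Hochberg method, and none passed 0.05. In EphA2 KO 1 had an unadjusted p below 0.05, as did 1475 of 22727 genes, and 1 passed by DESeq2, which called 0.762% of genes there. Over all genes edgeR's test called 0.044% in EphA2 KO, 0.0396% in the PC3 controls and 0.0572% each in EphA2 OE and the DU145 controls. The overlapping genes of IFI6, PPARGC1B and EPDR1, namely AL445490, MIR378A and SFRP4, were all at a mean of 0.101 CPM or less. Those of AC105052 included ENSG00000279168 and ENSG00000205236, which carry the same name. Their means were 1.01 and 3.81 CPM in EphA2 KO and 0.741 and 5.75 CPM elsewhere.

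The overlap of AC105052 was of another kind. Of its 9 exons, 5 overlapped exons of UPK3BL1 and 4 exons of POLR2J2, and 72.3% and 26.9% of its bases lay in them. In turn, 86.1% of the bases of UPK3BL1 lay in exons of AC105052. UPK3BL1 (ENSG00000267368) was at 9.28 and 29.4 CPM in EphA2 KO, where AC105052 was low. It was at 0.135 and 0.325 CPM in the PC3 controls, at 0.538 and 0.588 CPM in EphA2 OE, and at 4.05 and 0.669 CPM in the DU145 controls. Both EphA2 KO libraries were thus above all others, the reverse of AC105052. The difference was 4.83 on the log2 scale (SE 0.62) and did not pass edgeR's quasi-likelihood test (adjusted p = 0.0969), whereas DESeq2 gave an adjusted p of 8.4e-12. Without replicate 1 of the DU145 controls, its highest library outside EphA2 KO, edgeR gave an adjusted p of 0.0498. Without replicate 2 of EphA2 KO the difference was 3.78 (adjusted p = 0.278), and over all libraries left out in turn it lay between 3.78 and 5.44.

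Summed over both rows, the counts came to 12.3 and 34.2 CPM in EphA2 KO and to 22.2 to 28.6 CPM in the other libraries, so that the groups overlapped. The means were 23.3 ± 15.5 CPM (SD, n = 2) and 26.2 ± 2.65 CPM (SD, n = 6). Of the EphA2 KO libraries, replicate 1 of this sum lay below all others and replicate 2 above them. POLR2J2, which shares the other exons and is not in the sum, was at 4.96 CPM in EphA2 KO and 3.49 CPM elsewhere on average (adjusted p = 0.819, edgeR).

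Shared sequence was measured as the share of 31-base words of a gene's transcripts that also occur in transcripts of another gene. All words of AC105052 did, 90.8% of them in POLR2J3, 71.8% in UPK3BL1 and 39.5% in UPK3BL2. XAGE1B shared 76.3%, all with XAGE1A. The other 4 genes shared little: 0.453% for IFI6, 0.464% for UHMK1, 1.36% for PPARGC1B and 2.80% for EPDR1. Over 13797 genes the median was 2.12%, and 6.68% of genes shared at least 50% of their words. The levels of AC105052 and XAGE1B are uncertain for this reason, since the counting could split reads between copies. The sum with UPK3BL1 left out POLR2J3 and UPK3BL2. POLR2J3 (ENSG00000168255) was at a mean of 16.37 CPM in EphA2 KO and 15.97 CPM elsewhere (log2 difference 0.04, SE 0.13). Another row of that name, ENSG00000285437, was at 4.31 and 7.85 CPM (-0.85, SE 0.40). UPK3BL2 was at 13.1 and 9.31 CPM (0.50, SE 0.22). None of them passed edgeR's test. Whether reads of AC105052 were counted in these rows was not tested.

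XAGE1A (ENSG00000204379, chromosome X, 52495808 to 52500812, plus strand) lies 11265 bases from XAGE1B on the opposite strand. It was at 0 and 1.18 CPM in EphA2 KO, at 4.22 and 1.73 CPM in the PC3 controls, at 5.30 and 4.78 CPM in EphA2 OE and at 4.05 and 4.90 CPM in the DU145 controls. Its difference in EphA2 KO, -2.78 on the log2 scale (SE 1.12), did not pass the test (adjusted p = 0.769, edgeR). It rested on single libraries: it was -1.79 without replicate 1 of EphA2 KO, and -10.9 (adjusted p = 0.0569) without replicate 2, where the library left is at 0 and the value depends on the prior count. Both rows summed were at 1.08 and 2.28 CPM in EphA2 KO and at 6.10 to 10.5 CPM elsewhere. Unlike AC105052, the sum thus stayed below all other libraries, by 2.67-fold, although those libraries then spread over 1.72-fold. PRAME, another tumour antigen gene, differed by 0.00 on the log2 scale in EphA2 KO (edgeR).

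**Figure D3:**
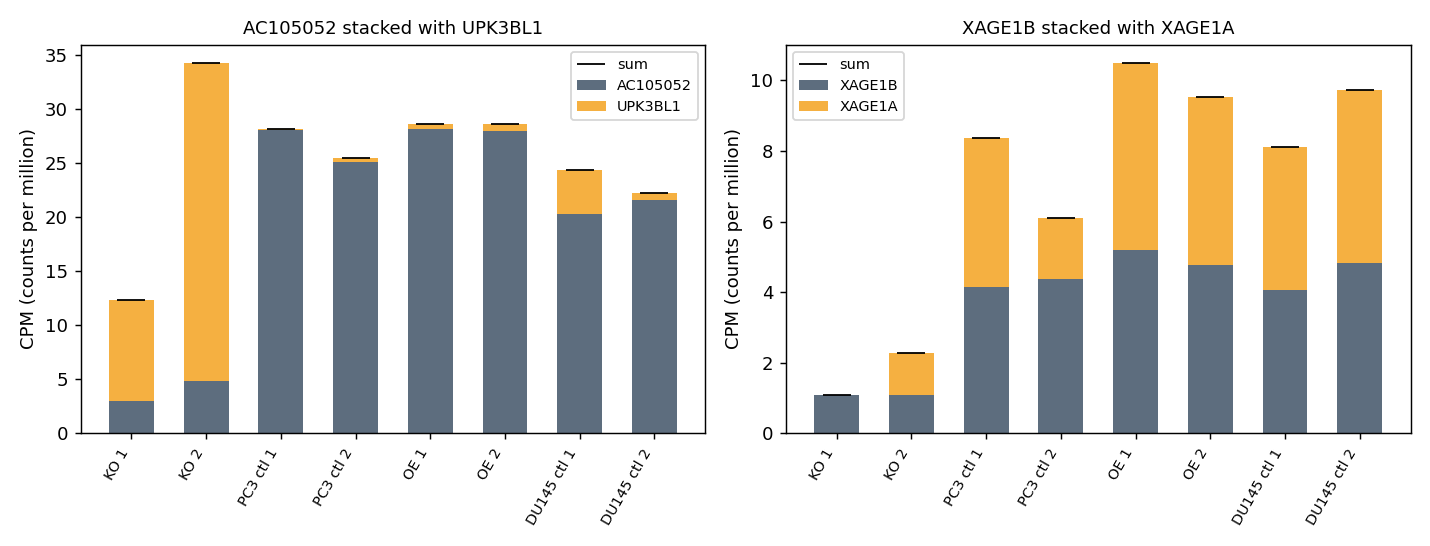
CPM of AC105052 stacked with UPK3BL1 (left) and of XAGE1B stacked with XAGE1A (right) in each library; black lines mark the sum. The summed AC105052 rows in EphA2 KO, 12.3 and 34.2 CPM, lie on both sides of the other libraries, while the summed XAGE1 rows, 1.08 and 2.28 CPM, lie below them.

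The nearest tested genes on both sides did not pass the test either. Among 12 neighbours of the 6 genes, none passed an adjusted p of 0.05 (edgeR; 1 at an unadjusted p below 0.05, none by DESeq2). Without replicate 1 of the DU145 controls 1 passed, FAM156B beside XAGE1B. That gene was at 20.6 and 32.6 CPM in EphA2 KO, at 19.9 to 21.5 CPM in 5 of the other libraries and at 0 in replicate 2 of the DU145 controls, which is then the only library of its group. EphA2 KO replicate 1 lay within the range of those 5 libraries. Beside UHMK1, the enzyme gene UAP1 was at 399.8 CPM in EphA2 OE and 363 CPM elsewhere (log2 difference 0.13, SE 0.08), and beside EPDR1, the endosomal protein gene STARD3NL was at 81.3 and 73.4 CPM (0.13, SE 0.08).

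IFI6 belonged to a list of 50 interferon-stimulated genes, 48 of which were tested. IFI6 was the only one called in EphA2 OE by edgeR. It was chosen by its levels in these libraries, so its call is not independent of the choice. Of the 48, 27 had an unadjusted p below 0.05, as did 1810 of 22727 genes in all. The median difference of the list was 0.57 on the log2 scale, with 45 of 48 above 0, beside a median of 0.02 and 53.1% above 0 over all genes. Of the 37 list genes with a mean of 2 CPM or more, 12 had both EphA2 OE libraries above all other 6, where 5.33% of all genes did. Only 2 did so by 1.5-fold, and IFI6 alone by 2-fold. IFI6, whose levels chose it, is included in the counts and medians of this list, here and below. Some other gene lists also shifted in EphA2 OE (log2). The median was 0.36 for 38 NF-kB and cytokine genes and 0.26 for 45 ATF4 and unfolded protein response genes. It was -0.27 for 34 sterol and lipid genes.

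After IFI6 the genes closest to the pattern were IFI44, an interferon-induced cytoplasmic protein, and MX1, an antiviral GTPase. IFI44 was at 10.2 and 20.4 CPM in EphA2 OE and at 3.41 to 5.61 CPM elsewhere (log2 difference 1.77, SE 0.23, adjusted p = 0.0797, edgeR). MX1 was at 48.5 and 95.5 CPM in EphA2 OE and at 21.1 to 32.6 CPM elsewhere (1.43, SE 0.21, adjusted p = 0.120, edgeR). Both passed by DESeq2, which called 1.18% of all genes in EphA2 OE. Both also passed without replicate 1 of EphA2 OE, where 276 genes (1.11%) were called in place of 13 and the 1 library left is assumed to vary like the other groups. Neither passed without replicate 2 (adjusted p = 0.125 for IFI44 and 0.152 for MX1, edgeR). As for IFI6, replicate 2 of EphA2 OE was the higher one, and it was the higher one for 36 of the 37 genes: the list median was 0.11 above the other libraries in replicate 1 and 0.62 in replicate 2 (log2), beside -0.01 and 0.03 over all genes. Without replicate 2 the difference was 1.22 for IFI44 and 0.90 for MX1, and without replicate 1 it was 2.17 and 1.83 (log2). Of the family relatives of IFI6, IFI27 differed by 1.14 (SE 0.32, adjusted p = 0.468, edgeR), IFI27L1 by 0.05 and IFI27L2 by -0.13.

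**Figure D4:**
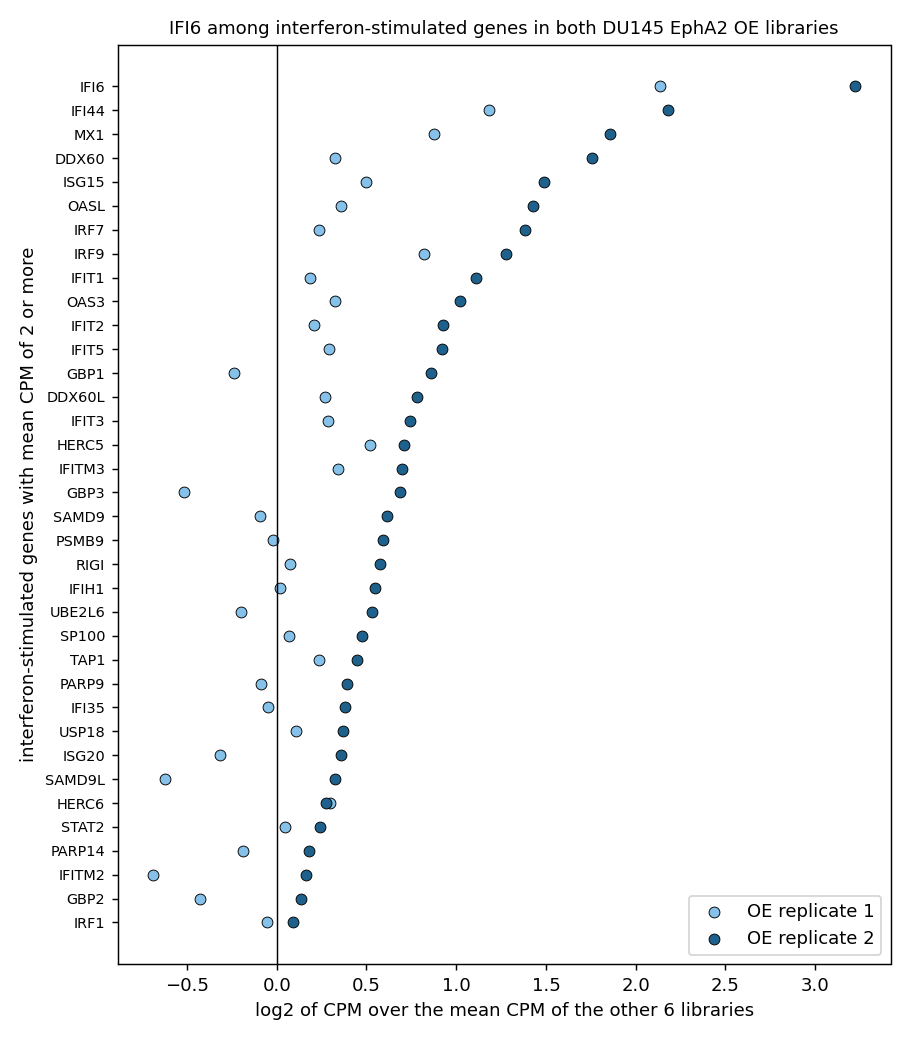
Log2 of the CPM in each EphA2 OE library over the mean CPM of the other 6 libraries, for 36 of the 37 interferon-stimulated genes with a mean of 2 CPM or more; each point is 1 library. IFI6 lies farthest to the right in both, and replicate 2 lies to the right of replicate 1 in 35 of the 36 genes.

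For the genes low in EphA2 OE, related genes with a mean of at least 1 CPM in the other groups stayed near 0. Among 6 genes related to UHMK1 the differences lay between -0.19 and 0.13 on the log2 scale. Its substrates were CDKN1B at 0.04, the microtubule regulator STMN1 at -0.08 and SF1 at -0.08. The interactor PAM was at -0.19. U2AF1 and U2AF2, which share a motif with UHMK1, were at 0.13 and -0.09. These are RNA levels, and kinase activity was not measured. UHMK1 was also in a list of 53 cell cycle genes, whose median was -0.04. Among 10 partners and targets of PPARGC1B the range was -0.18 to 0.30, with the family member PPRC1 at 0.03, the nuclear receptor ESRRA at 0.30 and the mitochondrial transcription factor TFAM at 0.15. Among 8 lysosomal genes beside EPDR1 it was -0.28 to 0.16, with the membrane protein LAMP1 at -0.28 and the protease CTSD at 0.05. The lowest adjusted p among these 24 genes was 0.641 (edgeR), which does not show that they were equal.

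**Figure D5:**
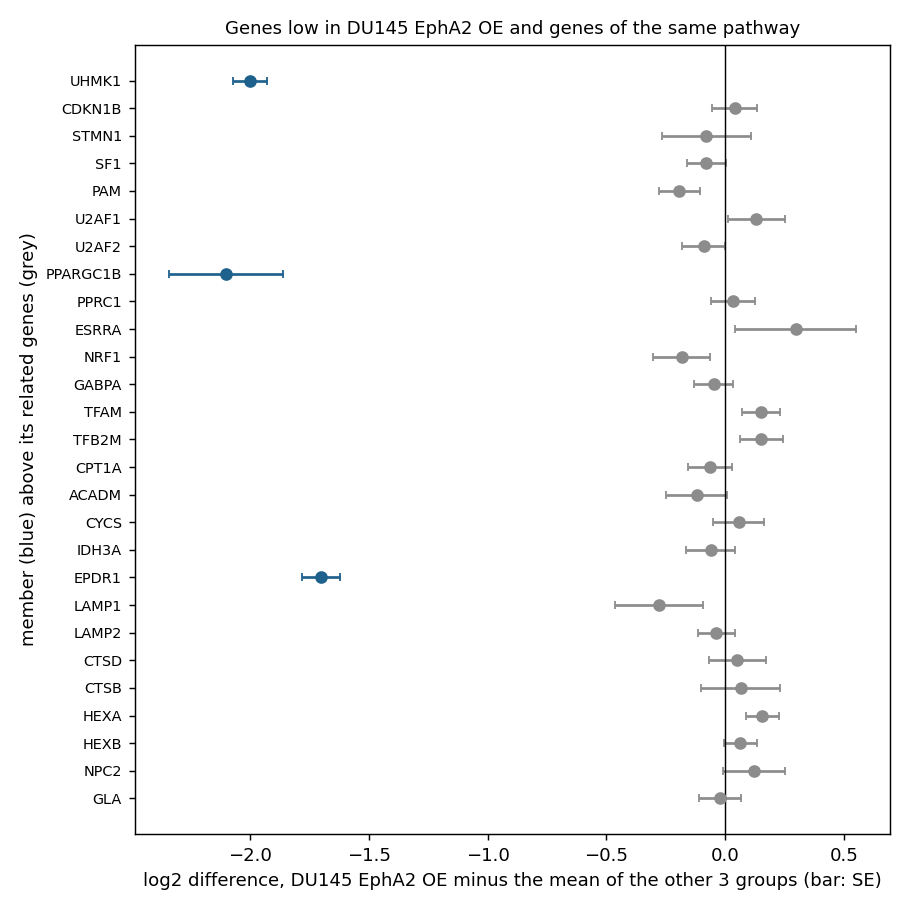
Log2 difference of EphA2 OE minus the mean of the other 3 groups (bars: SE) for UHMK1, PPARGC1B and EPDR1 (blue) and related genes (grey). The 3 genes lie at -2.00, -2.10 and -1.70, and the related genes between -0.28 and 0.30.

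The deposited FPKM gave no separate view of the 6 genes. The ratio of count to FPKM was nearly constant for each gene, with a median SD over libraries of 0.000866 on the log2 scale and at most 0.0559 over 14562 genes. None of the 6 genes, and none of the 14562, differed in it by limma at an adjusted p of 0.05 (556 to 666 genes per contrast at an unadjusted p below 0.05).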

How the data were processed

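The deposited table gives raw counts and FPKM for each of 8 libraries, per the file headers. The submitters' processing notes name cutadapt 1.9, HISAT2 2.2.1, StringTie 2.1.6, DESeq2, edgeR and GRCh38; which tool made which column is not given in the sources used here. Library preparation marked the strand by dUTP, per the labels' protocols; whether counting used it is not given in the sources used here. No value column was without a sample (0).

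The genes and lists were chosen with earlier results of these data known. Named were the genes with the largest gap in each group and direction, those in a fixed list, those nearest the threshold, and overlapping or neighbouring genes that passed. XAGE1A, UPK3BL1, POLR2J2, PRAME, IFI44, MX1, the other related genes and the neighbours given as examples were named after their values were seen.

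Counts were fitted with edgeR 4.0.16 (TMM, filterByExpr with a minimum count of 10 and total of 15, 4 group means, quasi-likelihood test, Benjamini-Hochberg adjustment over 22727 genes), R 4.3.3; each group was set against the mean of the other 3. Each SE given with an edgeR difference is the size of that difference over the square root of the F statistic of its test. For the genes chosen by their levels it is therefore not independent of the choice. DESeq2 1.42.0 was an alternative. Limma 3.58.1 tested log2 of count per FPKM for genes with a count of 20 and FPKM of 0.2 or more in every library. Scripts were tested on simulated data. 1 interferon-stimulated gene is counted in its list but not reported here.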

Additional observations from a re-analysis of the deposited data

How the results depend on the processing

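The number of genes apart in one group was 35 with a gap of 1.5-fold and 12 with the other libraries within 2-fold. It was 24 to 51 with 1 library left out, since 1 library then satisfies the rule for its group. All 6 genes were among them each time, but this was fixed in advance. Fewer libraries can only widen the gap and narrow the spread, and the means of the genes stayed over the floor. FPKM in place of CPM lost PPARGC1B, because the floor of 2 was kept and its mean FPKM was lower. Its libraries stayed apart, at 0.350 and 0.204 FPKM in EphA2 OE and 1.07 to 1.31 FPKM elsewhere. A floor of 10 CPM lost XAGE1B, a gap of 3-fold lost EPDR1, and TMM or DESeq2 size factors added CPEB2. Summing AC105052 with UPK3BL1 and XAGE1B with XAGE1A, an alternative chosen after seeing the data, lost AC105052 and XAGE1B. Of the overlapping genes 1, UPK3BL1, passed with DESeq2, and 0 to 1 with a library left out (UPK3BL1 without replicate 1 of the DU145 controls, adjusted p = 0.0498, edgeR). Of the neighbours 0 to 1 passed with a library left out (FAM156B, without the same library, which leaves its group with 1 library at 0 CPM). IFI44 and MX1 passed with DESeq2 and without replicate 1 of EphA2 OE, but not without replicate 2. Without centring per library, 6 genes passed for count per FPKM, because the ratio then carries the depth of the library.

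The labels do not say whether same-numbered libraries were made together. Deviations of same-numbered libraries from their group means correlated at -0.0157 to 0.0420 between groups. Such small values over all genes do not exclude a pairing that acts on some genes. With the replicate number as a block, 0 overlapping genes, 0 neighbours and 0 genes for count per FPKM passed, and calls over all genes fell from 10 to 0 in EphA2 KO and from 13 to 4 in EphA2 OE. The precision is limited by 2 libraries per group and a median biological coefficient of variation of 0.257.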
